A study of Mus musculus with 18 samples.

Results

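The genes described here are 9 members of the Pax-, Six- and Eya-gene families of developmental regulators, namely Pax3, Pax7, Six2, Six4, Six5, Eya1, Eya2, Eya3 and Eya4. They were taken by symbol from the 55450 gene IDs of a count table. C2C12, the line studied, consists of mouse myoblasts that exit the cell cycle and fuse into myotubes in low serum. Messenger RNA was measured by polyA RNA sequencing in 18 libraries, which fall into 6 groups of 3 replicates (A, B and C). The groups combine 3 lines with 2 stages, proliferating myoblasts in fetal bovine serum and myotubes on day 3 in horse serum. The control (px) is a sorted, EGFP-positive population that received the pX458 vector without guides. The overexpressor (2-4) and the knockout (2-7) are lines grown from single cells after Cas9 cutting with a pair of guides in the proximal promoter region of Meg3, a noncoding gene of the Dlk1-Dio3 cluster. Each mutant genotype is thus 1 clone and is compared with a population, so genotype and clone cannot be told apart. The labels do not say that replicates came from separate cultures, so the p-values measure only the spread between these samples, which may be technical.

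Pax3 and Pax7 are paired-box transcription factors that specify muscle progenitors, and Pax7 marks the satellite cells of adult muscle. Six-family proteins are homeodomain factors that bind MEF3 elements in muscle promoters, among them that of myogenin (Myog), and Eya proteins are their coactivators, which carry a phosphatase domain and do not bind DNA themselves. Dach and Groucho (Tle) proteins act as corepressors in the same network. In cultured myoblasts Pax7 is known to decline as cells differentiate.

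The libraries held between 41544358 and 79140702 counts. Levels are given as counts-per-million (CPM) values scaled with TMM factors, and at these depths 3 counts, the most that a count of 0 allows, correspond to 0.0375 to 0.0693 CPM. Meg3, the gene at the edit, had 0 counts in all control and knockout libraries and 5222 to 7763 counts in overexpressor myotubes and 5363 to 6924 in overexpressor myoblasts, so it checks the overexpressor label and cannot check the knockout label. Myoblast markers were present in every group. The 5 genes summed to 1357 to 1507 CPM in control myoblasts and 2580 to 2704 in control myotubes. The sums were 2732 to 3308 and 5599 to 6789 in the overexpressor, and 3423 to 3897 and 7840 to 10425 in the knockout. In each line the sum was higher in myotubes, so it does not mark the myoblast stage. The 6 myotube markers summed to 9130 to 11659 CPM in knockout myoblasts and 13607 to 14059 in control myotubes. They summed to 243 to 372 in control myoblasts and 423 to 699 in overexpressor myoblasts. By these sums the knockout libraries labelled myoblast carried a myotube program. In them 6 of 6 markers were higher than in control, against 26.4% of all genes. In overexpressor myoblasts 5 of 6 were higher too, against 20.7% of all genes. The lines differed in size, with a median log2 fold change of these markers of 5.46 in knockout and 0.73 in overexpressor myoblasts. The 5 fibroblast-type markers summed to 346 to 368 CPM in control myoblasts and 375 to 388 in control myotubes, to 462 to 589 and 42.7 to 45.8 in the overexpressor, and to 50.4 to 53.8 and 21.6 to 24.7 in the knockout, and of these Thy1 never exceeded 4 counts. The 8 adipocyte, osteoblast and chondrocyte markers summed to 198.3 to 218.3 CPM in control myoblasts and 127.6 to 137.6 in control myotubes. In the overexpressor they summed to 234.6 to 250.9 in myoblasts and 97.97 to 110.2 in myotubes. In the knockout these sums were 171.9 to 186.5 and 66.99 to 78.99, and the part of these markers in the differences of members was not tested. Endothelial, immune and neural crest or Schwann cell marker lists never exceeded 0.669, 2.27 and 2.37 CPM, and Sox10 and Foxd3 were at 0 in all 18 libraries. Overexpressor myotube replicate C stood apart from its replicates: the chi-square per degree of freedom over genes was 118 against A and 112 against B. Its replicates A and B gave 22.8, and the pairs of the other groups 4.72 to 55.0. The value of 55.0 was that of knockout myotube replicates A and C, where B and C gave 24.0 and A and B 21.0. Calls of members that involve these myotubes are given with and without it, and the 5 list genes named below for overexpressor against control myotubes kept their calls without it.

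Within these cells the family was represented by 6 abundant members and 3 that were at or near 0. Pax7, Six4, Six5, Eya1, Eya3 and Eya4 were counted in every library. Six2 had 0 counts in all 18 libraries and was not tested. Pax3 had at most 19 counts in a library and Eya2 at most 71, and both passed the filter on low counts only through 1 group (knockout myoblasts for Pax3, overexpressor myoblasts for Eya2). Calls between that group and others were therefore favoured by the filter and carry no weight here, and both genes are described by their counts alone. On GRCm38 the Pax genes are Pax3 (chr1:78101267-78197134, minus strand) and Pax7 (chr4:139737062-139833528, minus strand). The Six-family genes are Six2 (chr17:85684277-85688274, minus strand), Six4 (chr12:73099609-73113456, minus strand) and Six5 (chr7:19094594-19098549, plus strand). The Eya genes are Eya1 (chr1:14168954-14310235, minus strand), Eya2 (chr2:165595032-165771727, plus strand), Eya3 (chr4:132638987-132724765, plus strand) and Eya4 (chr10:23102963-23350786, minus strand). None of the 9 shares an exon with another gene of the GENCODE annotation.

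**Figure D1:**
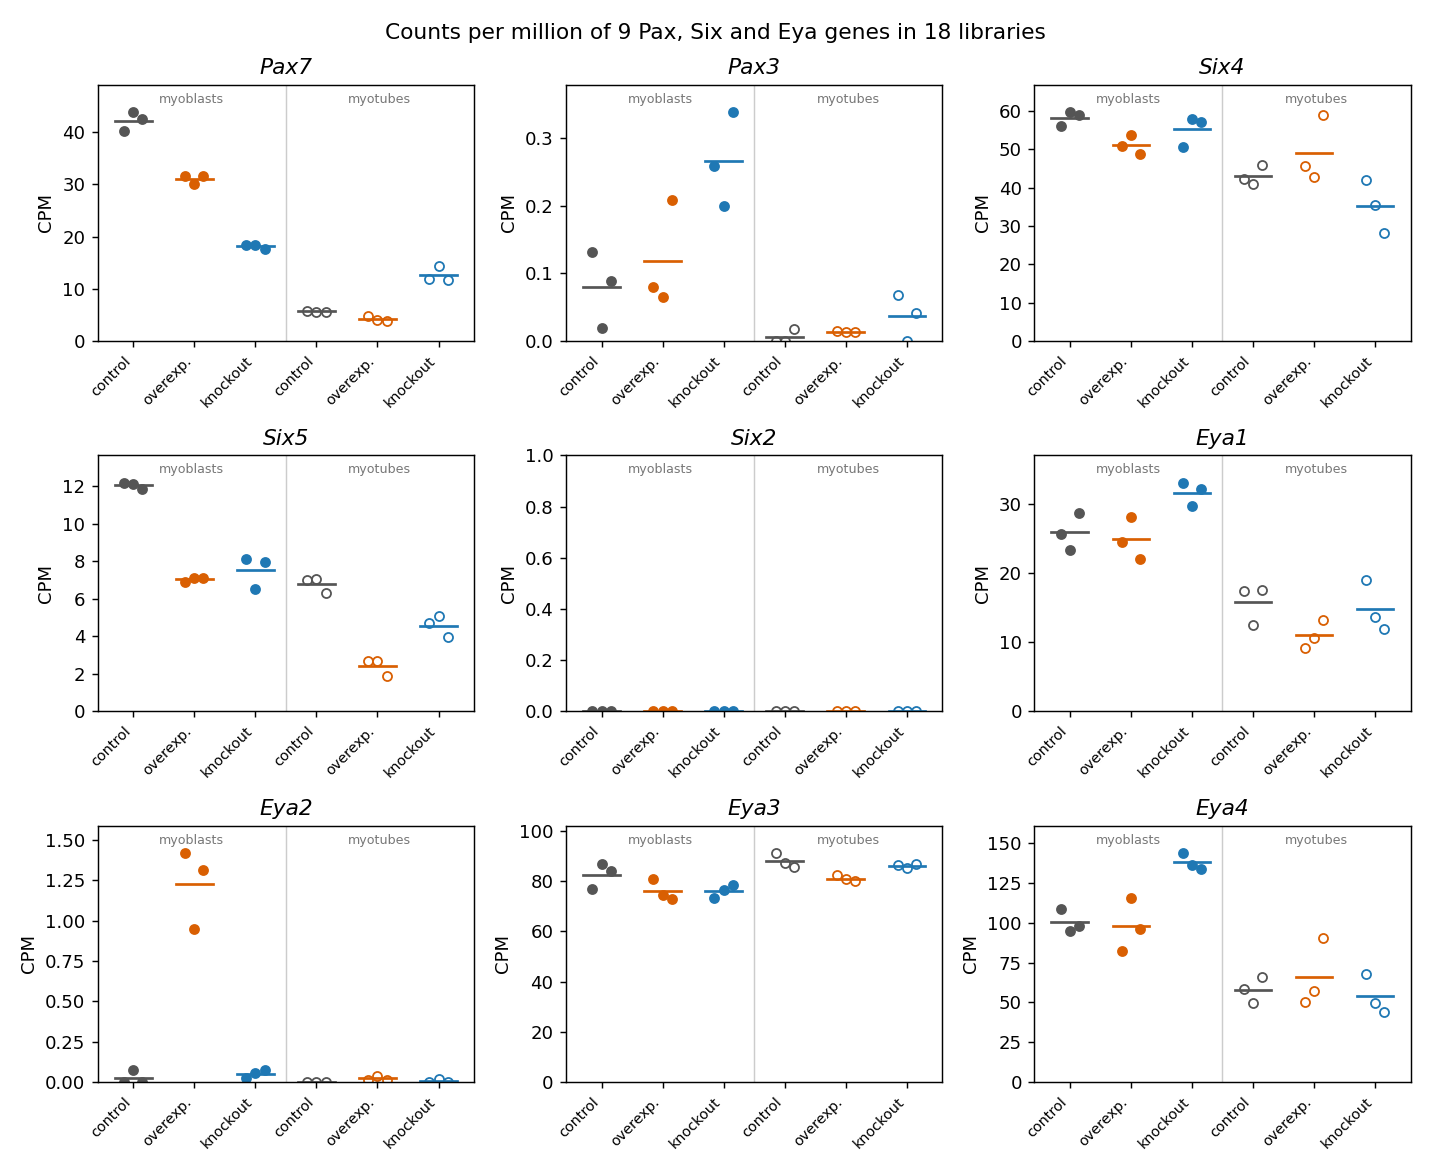
Level of each of the 9 genes in CPM (vertical axis, linear, from 0, a different range in each panel) in the 3 libraries of each group, with filled points for myoblasts, open points for myotubes and a bar at the mean of 3. Pax7 is at 40.2 to 43.8 CPM in control myoblasts and at 5.61 to 5.70 in control myotubes, and Six2 is at 0 throughout.

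To compare levels between genes, counts were also scaled by exon length in kilobases (RPKM). On this scale Eya3 and Eya4 were the highest members in each of the 6 groups. In control myoblasts the mean RPKM was 14.6 ± 0.931 (SD, n = 3) for Eya3, 10.7 ± 0.775 for Eya4, 7.19 ± 0.311 for Pax7, 5.36 ± 0.178 for Six4, 4.01 ± 0.0551 for Six5 and 3.32 ± 0.342 for Eya1. Control myotubes kept Eya3 first at 15.6 ± 0.486 RPKM, while Pax7 moved from rank 3 to rank 6 at 0.962 ± 0.00921. The order of Eya3 and Eya4 in myoblasts depended on the length used: with the longest transcript in place of all exons, Eya4 (19.0 RPKM) stood above Eya3 (15.9) in control myoblasts. Summed over each family, control myoblasts held 28.7 ± 0.309 RPKM of Eya, 9.37 ± 0.156 of Six-family and 7.20 ± 0.302 of Pax transcripts, and control myotubes 23.8 ± 1.27, 6.23 ± 0.106 and 0.963 ± 0.00853.

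**Figure D2:**
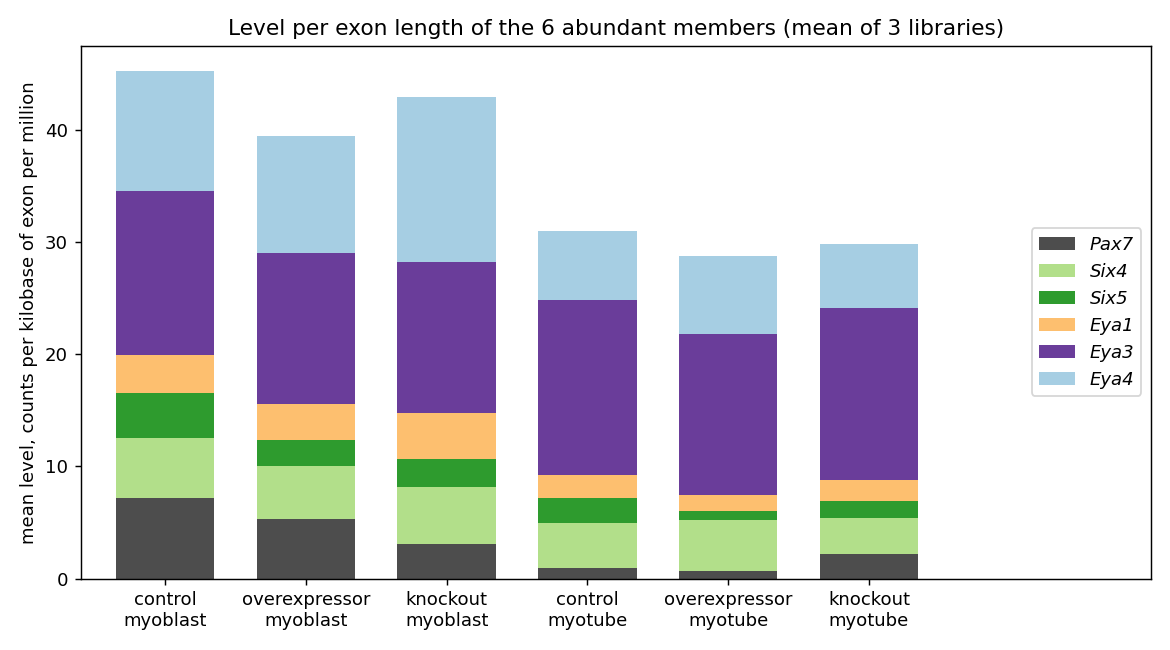
Mean level per exon length (RPKM, stacked, mean of 3 libraries, no error shown) of the 6 abundant members in each group. The Pax7 segment is 7.19 RPKM in control myoblasts and 0.962 in control myotubes, while the Eya3 segment stays between 13.5 and 15.6 in all 6 groups.

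Promoter windows of 300 bases (250 before and 50 after a start site, RefSeq, GRCm38.p6) were at hand for 6 of the 9 members: Pax7, Six2, Six4, Six5, Eya3 and Eya4. They are shown for Six4 and for Myog, a known Six-protein target, because these hold the MEF3 element (for Six4, the window of the other start site in the table does not), and for Pax7 and Six5, because these members differed from control in both mutant lines at both stages. Each runs 5′ to 3′ on the strand of its gene. Capitals mark a match on either strand to the MEF3 element TCAGGTTTC, the E-box CANNTG bound by myogenic basic helix-loop-helix factors, or the GC box GGGCGG. No matches overlap in these windows.
Six4, chr12:73113196-73113495, minus strand: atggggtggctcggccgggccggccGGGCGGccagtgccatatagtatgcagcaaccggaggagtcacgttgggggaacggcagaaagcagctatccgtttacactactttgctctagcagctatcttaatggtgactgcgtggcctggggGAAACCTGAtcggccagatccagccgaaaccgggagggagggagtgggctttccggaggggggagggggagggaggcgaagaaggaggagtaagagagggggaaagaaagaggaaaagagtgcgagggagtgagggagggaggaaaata
Myog, chr1:134289754-134290053, plus strand: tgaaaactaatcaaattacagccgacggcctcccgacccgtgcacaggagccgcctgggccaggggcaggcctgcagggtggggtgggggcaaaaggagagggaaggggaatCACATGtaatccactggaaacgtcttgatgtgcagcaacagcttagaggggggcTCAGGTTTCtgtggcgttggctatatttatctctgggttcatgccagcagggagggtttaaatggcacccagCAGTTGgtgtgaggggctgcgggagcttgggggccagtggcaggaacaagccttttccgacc
Pax7, chr4:139832919-139833218, minus strand: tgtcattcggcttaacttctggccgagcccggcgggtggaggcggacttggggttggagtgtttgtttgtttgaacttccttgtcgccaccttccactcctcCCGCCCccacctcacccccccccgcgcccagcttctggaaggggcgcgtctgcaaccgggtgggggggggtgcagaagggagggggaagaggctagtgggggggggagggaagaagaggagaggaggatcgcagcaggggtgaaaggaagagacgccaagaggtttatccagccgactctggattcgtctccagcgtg
Six5, chr7:19094294-19094593, plus strand: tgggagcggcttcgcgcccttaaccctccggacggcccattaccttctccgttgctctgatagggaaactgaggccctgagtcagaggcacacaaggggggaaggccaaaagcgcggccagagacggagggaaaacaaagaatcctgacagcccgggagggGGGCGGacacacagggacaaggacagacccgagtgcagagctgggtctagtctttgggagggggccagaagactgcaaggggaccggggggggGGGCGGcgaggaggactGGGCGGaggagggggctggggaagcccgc
The MEF3 element lay at positions -84 to -76 in Myog and, in the opposite orientation (GAAACCTGA), at -99 to -91 in Six4, counted from 0 at the start site. It occurred in 0.429% of the 32851 windows of the same length in the RefSeq table. An E-box occurred in 72.3% of windows and a GC box in 35.7%. The windows of Pax7, Six2, Six4 and Six5 held no E-box and between 1 and 3 GC boxes, while those of Eya3 and Eya4 held 1 E-box each. A match describes letters in the window and is no evidence of binding.

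Counts of members that passed the test (edgeR's quasi-likelihood test, Benjamini-Hochberg adjusted over 17912 genes, threshold 0.05) are read here against the share of all tested genes that passed, since these lines differed widely. In myoblasts, 3 of the 8 tested members differed between overexpressor and control, 1 higher (Eya2) and 2 lower (Pax7, Six5), against 40.4% of all genes (20.7% higher, 19.7% lower). Between knockout and control myoblasts 3 of 8 differed, 1 higher (Pax3) and 2 lower (Pax7, Six5), against 53.0% (26.4% higher, 26.6% lower). Overexpressor and knockout myoblasts differed in 2 of 8, both higher in the overexpressor (Pax7, Eya2), against 52.6% (25.7% higher, 26.9% lower). These shares lie near or below those of all genes, so the number of members called is no result about the family, and the Pax3 and Eya2 calls among them were favoured by the filter on low counts.

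In myotubes, the overexpressor differed from control in 3 of 8 members, all lower (Pax7, Six5, Eya1), against 57.1% of all genes (26.2% higher, 30.9% lower). The knockout differed in 3 of 8, 1 higher (Pax7) and 2 lower (Six4, Six5), against 68.0% (31.0% higher, 37.0% lower). Overexpressor and knockout myotubes differed in 4 of 8, 1 higher in the overexpressor (Six4) and 3 lower (Pax7, Six5, Eya1), against 59.7% (30.6% higher, 29.1% lower). From myoblasts to myotubes, 6 of 8 members fell in control cells and none rose, against 62.8% of genes called (33.9% higher, 28.8% lower). In the overexpressor 6 of 8 fell and none rose, against 62.8% (29.8% higher, 33.0% lower), and in the knockout 6 fell and 1 rose, against 65.4% (29.8% higher, 35.6% lower). The members that fell included Pax3 in each line and Eya2 in the overexpressor, which are read by their counts only. The change on differentiation differed from that of control in 1 of 8 members in the overexpressor (Six5, lower), against 39.0% of genes (16.6% higher, 22.3% lower), and in 1 of 8 in the knockout (Pax7, higher), against 50.1% (20.2% higher, 29.9% lower).

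**Figure D3:**
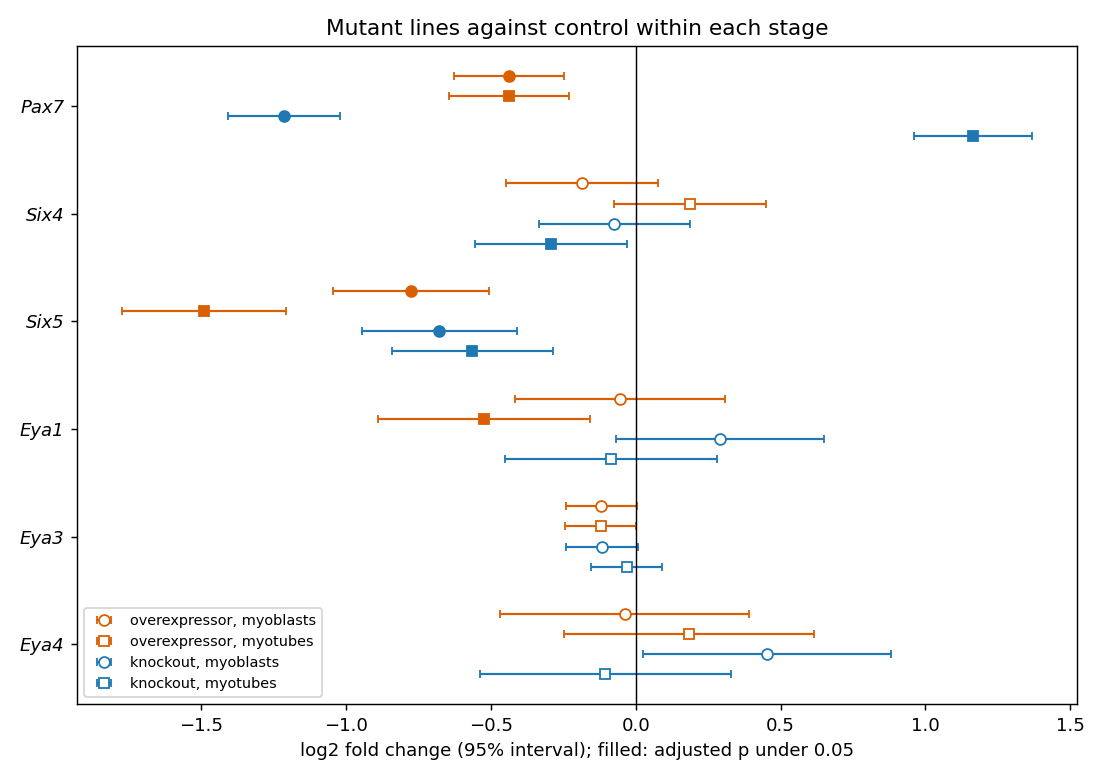
Log2 fold change against control (horizontal axis, bars 95% intervals) of the 6 abundant members, with circles for myoblasts, squares for myotubes, orange for the overexpressor, blue for the knockout and filled symbols for an adjusted p under 0.05. Six5 lies below 0 in all 4 comparisons, and Pax7 lies below 0 in all but the knockout myotubes, where it is at 1.16.

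Pax7 was lower than control in the myoblasts of both mutant lines and fell on differentiation in all 3 lines, but by much less in the knockout, whose myotubes held more Pax7 than those of the other lines. Control myoblasts read 40.2, 43.8 and 42.4 CPM (replicates A, B and C), overexpressor myoblasts 31.7, 30.0 and 31.6, and knockout myoblasts 18.5, 18.4 and 17.7. These 3 groups did not overlap, with control highest and knockout lowest. Control myotubes read 5.70, 5.61 and 5.61 CPM, overexpressor myotubes 4.81, 3.94 and 3.75, and knockout myotubes 11.8, 14.4 and 11.7. Here the knockout was highest and the overexpressor lowest, again with no overlap. In the full order of levels (control, overexpressor and knockout myoblasts, then knockout, control and overexpressor myotubes) no neighbouring groups overlapped, and the highest mean was 10.1 times the lowest. In bulk RNA, fewer cells of a type and less RNA per cell cannot be told apart.

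In myoblasts Pax7 was 1.35-fold lower in the overexpressor than in control (log2 fold change -0.44, SE 0.091, adjusted p = 0.000722) and 2.32-fold lower in the knockout (-1.21, SE 0.091, adjusted p = 3.33e-09). The knockout myoblast libraries are those with the high myotube markers given above, and their part in the Pax7 difference was not tested. In myotubes it was 1.35-fold lower in the overexpressor (-0.44, SE 0.099, adjusted p = 0.000934) and 2.24-fold higher in the knockout (1.16, SE 0.096, adjusted p = 6.82e-09). In knockout myotubes 6 of 6 myotube markers were also higher than in control, and in overexpressor myotubes 4 of 6 (31.0% and 26.2% of all genes). Without overexpressor replicate C, which had the lowest Pax7 level of the 9 myotube libraries, the overexpressor difference in myotubes was -0.27 (adjusted p = 0.0473), and in a fit of the control and overexpressor myotubes alone it was -0.35 and did not pass (adjusted p = 0.0717). Directly compared, overexpressor and knockout differed by 0.78 in myoblasts (adjusted p = 1.02e-06) and by -1.60 in myotubes (adjusted p = 3.31e-10), or -1.51 (1.04e-09) without overexpressor replicate C.

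On differentiation Pax7 fell 7.47-fold in control cells (log2 fold change -2.90, SE 0.095, adjusted p = 2.70e-14) and 7.47-fold in the overexpressor (-2.90, SE 0.095, adjusted p = 3.39e-14), and 1.44-fold in the knockout (-0.52, SE 0.093, adjusted p = 9.06e-05). The change in the knockout differed from that in control by 2.38 (95% interval 2.10 to 2.66, adjusted p = 1.43e-10), and it stayed between 2.27 and 2.43 when any 1 of the 12 libraries was left out. The change in the overexpressor differed from the control change by 0.00014 (95% interval -0.28 to 0.28, adjusted p = 1.00). Without overexpressor myotube replicate C the fall in that line was -2.79 (adjusted p = 3.52e-14) and its difference from the control change 0.18 (0.328). Among 11058 genes with ordinary symbols and at least 5 CPM in a group, those most like Pax7 over the 18 libraries were Marcksl1 (Pearson r = 0.986) and Abhd14b (0.980). Such correlations are given as descriptions, since the libraries share 6 groups.

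**Figure D4:**
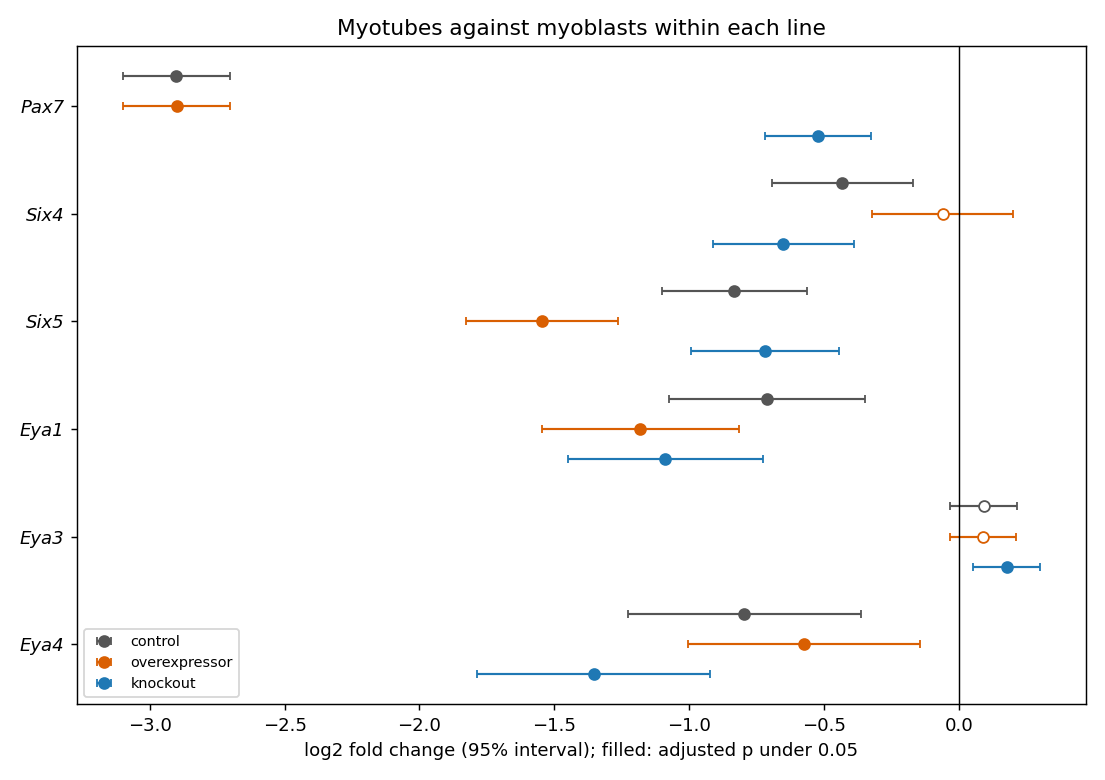
Log2 fold change from myoblasts to myotubes (horizontal axis, bars 95% intervals) of the 6 abundant members in control (grey), overexpressor (orange) and knockout (blue) cells, filled where the adjusted p was under 0.05. Pax7 is at -2.90 in control and overexpressor and at -0.52 in the knockout, and Eya3 is the member that does not fall, at 0.091 to 0.18.

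Pax3, the paralogue that acts earlier in the embryo, was close to the floor. Its counts (A, B, C) were 7, 1 and 4 in control myoblasts, 4, 3 and 9 in overexpressor myoblasts and 12, 11 and 19 in knockout myoblasts, and 0, 0 and 1, then 1, 1 and 1, then 4, 0 and 2 in the myotubes of the same lines. The 3 knockout myoblast libraries held the most counts, though per depth the lowest of them (0.200 CPM) lay below overexpressor myoblast replicate C (0.208 CPM). Scaled to depth, the 42 counts of knockout myoblasts were 3.34 times the 12 of control myoblasts. Knockout myoblasts held 42 counts and knockout myotubes 6, the latter 7.38 times lower. Pax3 passed the filter on low counts through knockout myoblasts, so these ratios describe the counts and are no test.

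Of the Six-family factors, Six5 was lower in both mutant lines at both stages, and Six4 moved little. Six5 read 12.2, 12.1 and 11.9 CPM in control myoblasts, 6.93, 7.10 and 7.09 in overexpressor myoblasts and 8.13, 6.52 and 7.97 in knockout myoblasts. Both mutant lines lay below every control library and overlapped with each other. In myotubes Six5 read 6.99, 7.05 and 6.30 CPM in control, 2.67, 2.68 and 1.88 in the overexpressor and 4.70, 5.07 and 3.95 in the knockout. The 3 myotube groups did not overlap, and the overexpressor was lowest. In the order of means (control, knockout and overexpressor myoblasts, then control, knockout and overexpressor myotubes) the 2 mutant myoblast groups overlapped, as did overexpressor myoblasts with control myotubes, and the highest mean was 5.01 times the lowest.

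In myoblasts Six5 was 1.71-fold lower than control in the overexpressor (log2 fold change -0.78, SE 0.13, adjusted p = 8.11e-05) and 1.60-fold lower in the knockout (-0.68, SE 0.13, adjusted p = 0.000204). The fibroblast-type markers, given above, were summed higher than control in the first of these lines and lower in the second (1 of 4 tested markers higher and 3 lower, and 2 higher and 2 lower), and their part in the Six5 differences was not tested. The direct difference of the mutant lines in myoblasts was -0.10 (95% interval -0.37 to 0.17, adjusted p = 0.554), which does not show that they are equal. In myotubes Six5 was 2.81-fold lower in the overexpressor (-1.49, SE 0.13, adjusted p = 2.66e-08) and 1.48-fold lower in the knockout (-0.56, SE 0.13, adjusted p = 0.00103), and the overexpressor differed from the knockout by -0.93 (adjusted p = 1.64e-05). In these myotubes all 4 tested fibroblast-type markers were lower than control in both lines (median log2 fold change -2.96 in the overexpressor and -6.56 in the knockout), and their part was not tested here either.

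Six5 also fell on differentiation, with log2 changes of -0.83 for control (SE 0.13, adjusted p = 1.80e-05), -1.55 for overexpressor (SE 0.13, adjusted p = 1.17e-08) and -0.72 for knockout cells (SE 0.13, adjusted p = 0.000120). The change in the overexpressor differed from that in control by -0.71 (95% interval -1.10 to -0.32, adjusted p = 0.00481). Overexpressor myotube replicate C carried the lowest Six5 level of all libraries, and without it this difference was -0.45 (adjusted p = 0.0381). Myotube Six5 was -1.24 against control (adjusted p = 8.61e-08) and -0.75 against the knockout (8.30e-05) without that library, and the fall on differentiation was -1.35 (1.84e-08). The genes most like Six5 over the 18 libraries were Fbln1 (r = 0.978) and Rad1 (0.974).

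Six4, which holds the MEF3 element in 1 of its 2 windows, had 56.0, 59.6 and 58.9 CPM in control myoblasts, 50.9, 53.7 and 48.8 in overexpressor myoblasts and 50.6, 57.9 and 57.2 in knockout myoblasts. No myoblast comparison passed, and overexpressor against control was -0.19 (95% interval -0.45 to 0.077, adjusted p = 0.263) although the libraries of these groups did not overlap and a fit of these groups alone passed (-0.22, adjusted p = 0.0227). In myotubes it read 42.3, 41.0 and 46.0 CPM in control, 45.6, 42.7 and 59.0 in the overexpressor and 42.1, 35.4 and 28.1 in the knockout. In the order of its 6 group means every neighbouring pair overlapped, and overexpressor replicate C was the highest and knockout replicate C the lowest of the 9 myotube libraries. Overexpressor against knockout myotubes gave 0.48 (SE 0.12, adjusted p = 0.00311), and 0.36 (adjusted p = 0.0113) without overexpressor replicate C. Against control the overexpressor gave 0.19 (adjusted p = 0.211), which passed with DESeq2 size factors (0.29, 0.0315), library totals (0.33, 0.0394) and DESeq2's Wald test (0.29, 0.0385). The call of Six4 in knockout against control myotubes (-0.29, adjusted p = 0.0459) was unstable: it was lost under 6 of the alternative analyses and without any of 5 of the 6 libraries, with adjusted p up to 0.256 without knockout replicate C.

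On differentiation Six4 fell by 0.43 on the log2 scale in control (SE 0.12, adjusted p = 0.00568) and by 0.65 in the knockout (SE 0.12, adjusted p = 0.000201). In the overexpressor it changed by -0.059 (95% interval -0.32 to 0.20, adjusted p = 0.699). The difference between overexpressor and control in this change (0.37, adjusted p = 0.105) did not pass, though DESeq2 size factors (0.48, adjusted p = 0.0218) and library totals (0.56, 0.0240) took it past the threshold, as did DESeq2's Wald test (0.48, 0.0196). Six4 was most alike in pattern to Tardbp (r = 0.954) and U2surp (0.942). Six2 stayed at 0 counts at every stage, which allows at most 0.0693 CPM in any library.

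Of the 4 Eya coactivators, Eya3 varied least, Eya1 and Eya4 fell with differentiation, and Eya2 exceeded 4 counts per library in overexpressor myoblasts and in no other group. Eya3 read between 76.7 and 86.9 CPM in control myoblasts and between 85.7 and 91.1 in control myotubes, and its 6 group means lay within 1.16-fold of each other. No mutant line passed against control for Eya3, although both did in myoblasts with library totals (-0.16, adjusted p = 0.0263, and -0.14, 0.0369) and without control myoblast replicate A (-0.17, 0.0394, and -0.17, 0.0338) and in the knockout also in a fit of the groups compared (-0.13, 0.0297). Overexpressor against control myotubes gave -0.12 (95% interval -0.24 to 0.0024), and -0.0067 (adjusted p = 0.944) without overexpressor replicate C. Control myotubes against control myoblasts gave 0.092 (adjusted p = 0.180), with a sign that turned with library totals (-0.15, adjusted p = 0.0227). In the knockout the rise of 0.18 (adjusted p = 0.0132) passed, but it did not with library totals (0.0078, adjusted p = 0.911), with no filter on low counts (0.16, 0.0972) or without knockout myoblast replicate A (0.15, 0.0654).

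Eya4 read 109, 95.1 and 98.2 CPM in control myoblasts, 82.6, 116 and 96.2 in overexpressor myoblasts and 144, 136 and 134 in knockout myoblasts. The knockout lay above both other groups without overlap, yet its difference from control, 0.45 (95% interval 0.025 to 0.88), did not pass after adjustment (adjusted p = 0.0713). It passed with DESeq2's Wald test (0.43, adjusted p = 0.0385) and in a fit of the 6 libraries compared (0.44, adjusted p = 4.84e-08). Overexpressor against knockout myoblasts gave -0.49 (adjusted p = 0.0524), which did not pass either. That difference passed with DESeq2 size factors (-0.47, 0.0411), DESeq2's Wald test (-0.47, 0.0218) and the groups compared alone (-0.49, 0.000942). It also passed without overexpressor replicate B (-0.63, 0.0345). In myotubes Eya4 read 58.5, 49.4 and 66.2 CPM in control, 50.5, 57.1 and 90.2 in the overexpressor and 67.8, 49.8 and 44.2 in the knockout. These groups overlapped, and the library at 90.2 was overexpressor replicate C. No myotube comparison passed.

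Eya4 fell on differentiation, with log2 changes of -0.79 for control (adjusted p = 0.00310), -0.57 for overexpressor (adjusted p = 0.0220) and -1.35 for knockout cells (adjusted p = 3.89e-05). Without overexpressor myotube replicate C the overexpressor value was -0.82 (adjusted p = 0.000354). The overexpressor call was lost without overexpressor myoblast replicate B (-0.44, adjusted p = 0.106) or overexpressor myotube replicate A (-0.41, 0.106) or B (-0.48, 0.0868). It was also lost with no filter on low counts (-0.54, 0.0792) and in a fit of the groups compared alone (-0.57, 0.0786). The larger fall in the knockout differed from that in control by -0.56 (95% interval -1.17 to 0.050, adjusted p = 0.117), which did not pass, though it did without knockout myotube replicate A (-0.76, 0.0362). Eya4 was most like Nap1l1 (r = 0.974) and Nedd1 (0.963) across libraries, and Eya3 most like Blmh (0.897) and Zfp30 (0.867).

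Eya1 read 25.7, 23.4 and 28.7 CPM in control myoblasts, 24.6, 28.2 and 22.0 in overexpressor myoblasts and 33.1, 29.7 and 32.3 in knockout myoblasts. The knockout libraries again lay above both other groups, and the difference from control, 0.29 (95% interval -0.070 to 0.65, adjusted p = 0.166), did not pass. In fits of the groups compared alone it did (0.28, adjusted p = 0.00124), as did overexpressor against knockout myoblasts (-0.34, 0.00682). In myotubes the values were 17.4, 12.5 and 17.6 CPM in control, 9.18, 10.6 and 13.2 in the overexpressor and 19.1, 13.7 and 11.9 in the knockout. Overexpressor and control overlapped, with a difference of -0.53 (SE 0.17, adjusted p = 0.0157), a call lost when control A (-0.45, 0.0658), control C (-0.44, 0.0682) or overexpressor A (-0.41, 0.0760) was left out. It was also lost with library totals (-0.38, 0.0858), no filter on low counts (-0.51, 0.0554) and a fit of the groups alone (-0.44, 0.0672), and was -0.57 (0.00999) without overexpressor C. Against the knockout the overexpressor gave -0.44 (adjusted p = 0.0384), which was lost without overexpressor replicate A (-0.32, 0.151) or B (-0.41, 0.0949) and was -0.22 without knockout replicate A (0.254). The same 3 alternatives gave -0.35 (0.112), -0.42 (0.124) and -0.42 (0.108), none past the threshold, and it was -0.56 (0.0132) without overexpressor replicate C. On differentiation Eya1 fell 1.64-fold (control, adjusted p = 0.00173), 2.27-fold (overexpressor, 1.36e-05) and 2.12-fold (knockout, 3.73e-05), with a log2 change of -1.29 (5.74e-06) in the overexpressor without its myotube replicate C. Jade3 (r = 0.978) and Nup98 (0.957) were the genes most like it.

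Eya2 had 71, 44 and 57 counts in overexpressor myoblasts, against 0, 4 and 0 in control and 1, 3 and 4 in knockout myoblasts. In myotubes it had 0 counts in all control libraries, 1, 3 and 1 in the overexpressor and 0, 1 and 0 in the knockout. The 3 overexpressor myoblast libraries were therefore set apart from all 15 others, at 1.23 ± 0.247 CPM (SD, n = 3). Scaled to depth, their 172 counts were 46.3 times the 4 counts of control myoblasts and 24.2 times the 8 of knockout myoblasts. All 4 control counts came from replicate B, so the first ratio rests on that library. Eya2 passed the filter on low counts through overexpressor myoblasts, so these ratios describe the counts and are no test. Overexpressor myotubes held 5 counts in all, against the 172 of the myoblasts of that line. Even so, Eya2 made up 1.52 ± 0.379% (SD, n = 3) of the summed Eya RPKM of overexpressor myoblasts. Its pattern was nearest to those of Mrgbp (r = 0.937) and Wwp2 (0.931).

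As shares of the summed Eya RPKM, Eya3 made up 51.0 ± 3.13% in control myoblasts and 65.7 ± 3.63% in control myotubes (SD, n = 3). Eya4 went from 37.3 ± 2.90% to 25.8 ± 2.66%, and Eya1 from 11.6 ± 1.09% to 8.48 ± 1.14%. In knockout myoblasts Eya4 held 45.5 ± 1.43% and Eya3 41.9 ± 1.64%, and in knockout myotubes Eya3 was back at 66.9 ± 5.05%. These shares rest on total exon length and carry no test. Over the 18 libraries the abundant members most alike among themselves were Eya1 and Eya4 (r = 0.890), followed by Six4 and Eya4 (0.819), while Eya3 and Eya4 had a negative correlation (-0.728). Eya3 was nearly flat (group means within 1.16-fold), and the sign of its small changes depended on the scaling. These values describe 6 groups and carry no test.

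The 3 lists of related genes examined beside the members were chosen with earlier results of these data known. The first held 14 partners and cofactors, of which 12 were tested and Dach1 and Dach2, the corepressors, had at most 8 counts in a library. Their counts are read against the shares of all genes called, 40.4% and 53.0% in overexpressor and knockout myoblasts and 57.1% and 68.0% in their myotubes. In myoblasts 1 was higher and 4 lower in the overexpressor than in control, with a median log2 fold change of 0.050 (0.015 over all genes), and 4 were higher and 4 lower in the knockout, with a median of 0.019 (0.019 over all genes). In myotubes 2 were higher and 5 lower in the overexpressor (median -0.20, against -0.037), and 5 higher and 4 lower in the knockout (median -0.026, against -0.068). Tle4, a Groucho corepressor, was higher in the knockout at both stages, with 8.49 ± 0.425 against 2.34 ± 0.408 CPM in myoblasts (1.86, SE 0.14, adjusted p = 2.49e-09) and 13.7 ± 1.06 against 3.80 ± 0.235 CPM in myotubes (1.85, SE 0.13, adjusted p = 9.94e-10). It was also higher in overexpressor myotubes, at 7.53 ± 0.975 CPM (0.98, adjusted p = 4.02e-06). Paxbp1, an adaptor between Pax3 or Pax7 and a histone methyltransferase complex, was at 5.76 ± 1.94 CPM in knockout myotubes against 24.7 ± 4.12 in control (-2.10, SE 0.32, adjusted p = 4.64e-05).

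Smaller changes were seen in other partners. Nedd4, a ubiquitin ligase reported to act on Pax7, was at 1101 ± 108 CPM in overexpressor myoblasts against 1679 ± 41.8 in control (-0.61, adjusted p = 0.000240). Tle1 was at 31.0 ± 0.899 CPM in knockout myoblasts against 43.5 ± 0.538 in control (-0.49, adjusted p = 0.000382). Kmt2d, a histone methyltransferase of that complex, was at 148 ± 13.6 CPM in overexpressor myotubes against 219 ± 9.82 in control (-0.57, adjusted p = 1.42e-05). Ash2l, a core subunit of such complexes, was 0.15 higher in overexpressor myoblasts (adjusted p = 0.0347), a call lost with DESeq2 size factors (0.0641), library totals (0.124), no filter on low counts (0.227), a fit of the groups compared alone (0.155), and when control replicate A (0.171) or B (0.115) or overexpressor replicate A (0.129) or B (0.0750) was left out.

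The second list held 26 genes of muscle progenitors and satellite cells, including reported Pax3 and Pax7 targets, of which 23 were tested, against the same shares of all genes. In myoblasts 11 were higher and 4 lower in the overexpressor (median 0.40, against 0.015 over all genes), and 8 higher and 7 lower in the knockout (median -0.0094, against 0.019). In myotubes 10 were higher and 9 lower in the overexpressor (median 0.40, against -0.037), and 11 higher and 7 lower in the knockout (median 0.34, against -0.068). Pax7 itself was lower in 3 of these 4 comparisons. Fgfr4, a fibroblast growth factor receptor reported as a Pax3 target, was at 39.4 ± 2.83 CPM in control myoblasts, 0.102 ± 0.0397 in overexpressor myoblasts (-8.59, adjusted p = 9.38e-07) and 0.262 ± 0.112 in knockout myoblasts (-7.20, adjusted p = 8.92e-07). Meox2, a homeobox factor of limb muscle precursors, was at 18 ± 0.993 CPM in knockout myoblasts against 0.0592 ± 0.0164 in control (8.18, adjusted p = 2.24e-12).

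Hey1, a Notch target, was at 39.6 ± 5.32 CPM in overexpressor myoblasts against 11.4 ± 0.690 in control (1.80, adjusted p = 6.92e-11) and at 19.5 ± 1.99 against 4.13 ± 0.245 in myotubes (2.24, adjusted p = 3.62e-12). Tbx1, a factor of head muscle progenitors, was at 1.40 ± 0.641 CPM in overexpressor myotubes against 26.8 ± 1.10 in control (-4.27, adjusted p = 5.44e-11). Pitx3 was at 13.0 ± 0.461 CPM in knockout myotubes against 0.753 ± 0.260 (4.08, adjusted p = 4.31e-12). Sdc3, a heparan sulfate proteoglycan of satellite cells, was at 39.7 ± 1.19 CPM there against 283 ± 21.2 in control (-2.83, adjusted p = 3.42e-15).

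The third list held 15 reported Six-protein targets in muscle, mostly of the fast-twitch program, of which 14 were tested, again beside 40.4%, 53.0%, 57.1% and 68.0% of all genes called. In myoblasts 10 were higher and 2 lower in the overexpressor (median 0.73, against 0.015 over all genes) and 11 higher and 2 lower in the knockout (median 3.90, against 0.019), while Six4 did not pass and Six5 was lower in both lines. In myotubes 11 were higher and 1 lower in the overexpressor (median 1.13, against -0.037) and 13 higher and 1 lower in the knockout (median 1.52, against -0.068). Tnnc2, a fast troponin C, was at 453 ± 58.3 CPM in knockout myoblasts against 6.49 ± 1.46 in control (6.12, adjusted p = 1.26e-12), and Mylpf, a fast myosin light chain, at 147 ± 36.2 CPM in overexpressor myoblasts against 47.1 ± 15.4 (1.64, adjusted p = 1.16e-05). Pvalb, a calcium buffer of fast fibres, was at 42.8 ± 5.43 CPM in overexpressor myotubes against 2.51 ± 0.505 (4.09, adjusted p = 1.35e-13), and Ckm, muscle creatine kinase, at 2155 ± 345 in knockout myotubes against 221 ± 17.6 (3.29, adjusted p = 2.90e-09).

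Among the targets that were lower, Ccnd1, cyclin D1, was at 139 ± 10.8 CPM in knockout myoblasts against 256 ± 17.3 in control (-0.89, adjusted p = 0.00104) and at 17.1 ± 3.25 against 49.3 ± 11.9 in myotubes (-1.52, adjusted p = 7.13e-06). Eno3, muscle enolase, was at 432 ± 36.1 CPM in overexpressor myoblasts against 558 ± 24.4 (-0.37, adjusted p = 0.00701). Several of these targets are also markers of differentiated muscle (Myog, Ckm and Tnnt3 are in both lists), so their higher level in knockout myoblasts is the same measurement as the myotube marker sum given above. The MEF3 element was in the window of 1 of the 9 targets with a promoter entry (Myog), and all 9 held an E-box.

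**Figure D5:**
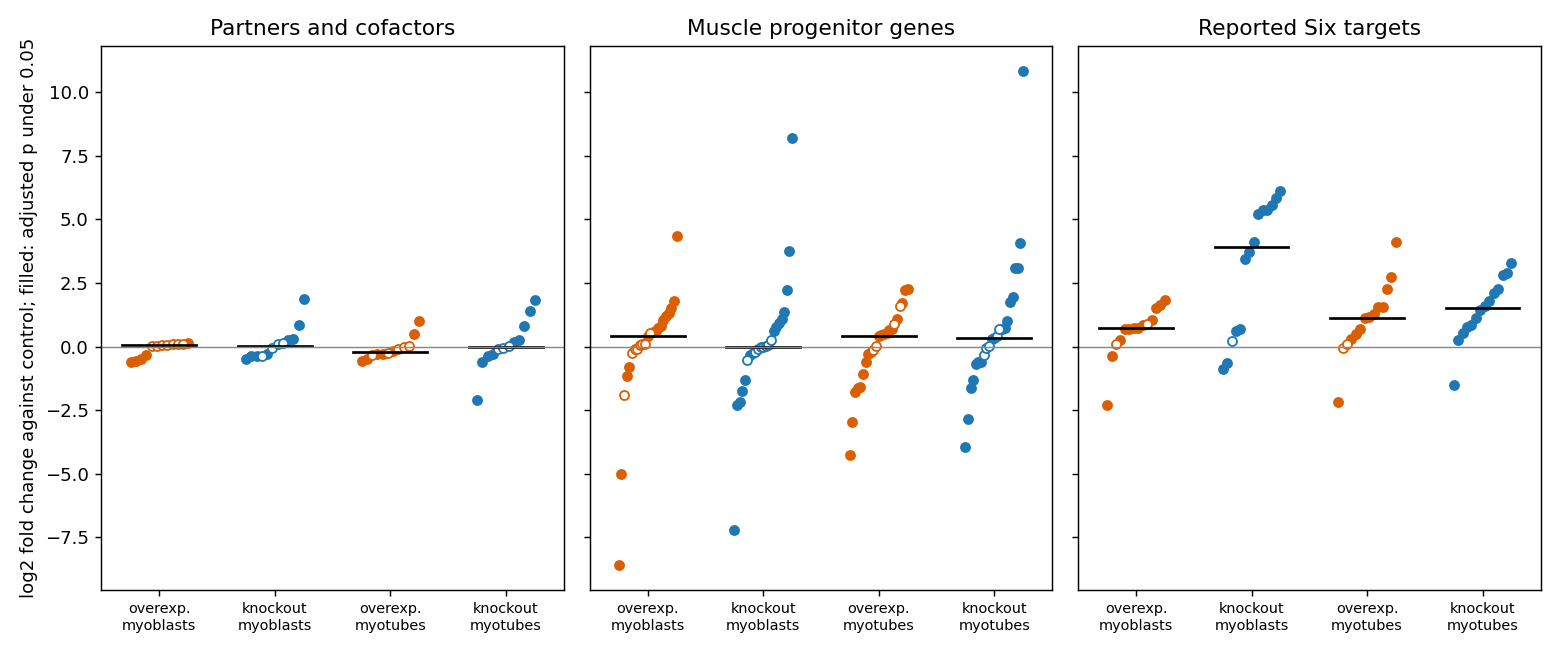
Log2 fold change against control (vertical axis) of each tested gene in the 3 related lists, 12 partners, 23 progenitor genes and 14 reported Six-protein targets, in the 4 comparisons of a mutant line with control, with filled points for an adjusted p under 0.05 and a black bar at the median. The median of the Six-protein targets is at 3.90 in knockout myoblasts, while the medians of the partners lie between -0.20 and 0.050.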

How the data were processed

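PolyA RNA of 18 C2C12 libraries was sequenced in triplicate. The authors deposited raw counts per Ensembl gene, which were used here, and variance-stabilised values, which were not. Per the submitters' processing notes the tools were STAR 2.7.9a, featureCounts, Subread 2.0.3, FastQC 0.11.7 and DESeq2 1.32.0 and the build was mm10; the strand setting and annotation release are not given in the sources used here, so reads of a gene and its antisense partner cannot be told apart. Gene positions and exon lengths came from GENCODE M21 (GRCm38), and 55104 of the 55450 IDs had a symbol.

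Counts were analysed with edgeR 4.0.16 in R 4.3.3 (TMM, low-count filter by group, robust quasi-likelihood fit). The fit covered all 6 groups, which share 1 estimate of the spread with 12 residual degrees of freedom, and gave 11 contrasts over 17912 genes, each Benjamini-Hochberg adjusted at 0.05. The filter kept at least 99.97% of each library's counts. Standard errors and 95% intervals come from the fit's information matrix. Counts of Pax3 and Eya2 were also given as ratios scaled to depth, which carry no test. CPM used TMM factors of 0.895 to 1.08.

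Tested on simulated data for the overexpressor against control myoblasts (17612 genes), the fit recovered 58% of genes changed 1.5-fold, 88% at 2-fold and 100% at 4-fold and 8-fold, with 8 of 17412 unchanged genes called. The simulation changed only 50 genes at each fold, while 40.4% of all genes were called in the real comparison. These rates therefore check the code and do not carry over to the real data. Alternatives were DESeq2 size factors, library totals, no low-count filter, DESeq2 1.42.0, a replicate block, the compared groups alone, a test against 2-fold change, another gene length, and leaving out each library.

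The members and the gene lists were chosen with earlier results of these data known. Beyond the members and Meg3, genes were named by rule: in each list and each comparison of a mutant line with control, the called gene with the highest and the one with the lowest log2 fold change, with at least 5 CPM in the higher group. For each member with at least 1 CPM in a group, the 2 genes most correlated with it in log2 CPM (prior count 2) were named. Dmpk and Tas1r2 were chosen after their values were seen, and Thy1, Sox10, Foxd3, Dach1, Dach2, Myog and Tnnt3 are named only for low counts or as list members.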

Additional observations from a re-analysis of the deposited data

Results flagged for a closer look

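The results for Pax7 and Six5 differed between lines in how a gene changed on differentiation, by a test of that difference (edgeR's quasi-likelihood interaction contrast). For Pax7, the change from myoblasts to myotubes in the knockout exceeded that in control by 2.38 on the log2 scale (adjusted p = 1.43e-10), with lower levels in all 3 knockout myoblast libraries and higher levels in all 3 knockout myotube libraries than in any control library of the same stage. For Six5, the change in the overexpressor differed from that in control by -0.71 (adjusted p = 0.00481), and by -0.45 (adjusted p = 0.0381) without overexpressor myotube replicate C. Groups of 3 libraries were not screened for outlying values of single genes.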

How the results depend on the processing

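All Pax7 and Six5 calls in these contrasts held under every alternative that tests against no change, except Pax7 in overexpressor against control myotubes, which did not pass in a fit of those groups alone (-0.35, adjusted p = 0.0717). Of 75 fold changes of members, 73 kept direction and call under the replicate block, 68 without the low-count filter, 63 using DESeq2 size factors, 62 using library totals and 61 with DESeq2's Wald test, as did 60 of 72 with the compared groups alone and 470 of 522 with a library left out. These tallies include some comparisons of Pax3 and Eya2, which are read by their counts only.

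Small differences changed sign, and the cause was not tested. With DESeq2 size factors this held for overexpressor against knockout myoblasts (Eya3 0.019), knockout against control myotubes (Eya1 0.042, Eya3 0.10, Eya4 0.024), differentiation in the overexpressor (Six4 0.020) and its difference from control (Eya3 0.11). DESeq2's Wald test gave 0.020 for the first, 0.039, 0.098 and 0.021 for the knockout myotubes, 0.018 for Six4 and 0.11 for Eya3. With library totals Eya3 was 0.027, 0.016 and 0.011 in overexpressor against control, knockout against control and overexpressor against knockout myotubes, -0.15 on control differentiation and 0.19 in the overexpressor's difference from it. Eya3 was 0.031 there without the low-count filter and 0.027 in knockout against control myotubes alone, and Pax7 was -0.0020 in the overexpressor's difference with the replicate block.

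With a library left out, overexpressor against control myoblasts ranged from -0.13 to 1.11 for Pax3, -0.15 to 0.027 for Eya1 and -0.17 to 0.071 for Eya4, and the overexpressor's difference in differentiation from -0.11 to 0.18 for Pax7 and -0.036 to 0.12 for Eya3. Eya3 in overexpressor against knockout myoblasts ranged from -0.049 to 0.028, Six4 on overexpressor differentiation from -0.17 to 0.037, and in myotubes against control Eya4 from -0.0080 to 0.34 (overexpressor) and -0.30 to 0.020 (knockout) and Eya1 from -0.30 to 0.052 (knockout).

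In a test against 2-fold change (glmTreat), members called were 1, 1 and 1 in the myoblast comparisons (overexpressor and knockout against control, overexpressor against knockout), 1, 0 and 1 in the same myotube comparisons, 1, 3 and 1 on differentiation (control, overexpressor, knockout) and 0 in the overexpressor's difference from control. That test called 1403 to 3541 genes per comparison in place of 6977 to 12180. Pax3 and Eya2 enter these numbers of members called but are read by their counts only. In overexpressor against control myoblasts only Eya2 had a log2 fold change beyond 2-fold. The overexpressor's difference in differentiation had 2 members called with DESeq2 size factors, library totals and the Wald test, and 1 to 2 with a library left out. The knockout's had 2 with DESeq2 size factors and the Wald test, and 1 to 3 with a library left out. The compared groups alone called 6 members in knockout against control myoblasts, 4 in overexpressor against knockout myoblasts and 1 in overexpressor against control myotubes.

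DESeq2 size factors shifted the median of all genes by 0.11 to 0.15 in the myotube comparisons with control, knockout differentiation and both differences in differentiation, and library totals by -0.24 on control differentiation and -0.17 on knockout differentiation. The share of called genes that were higher moved from 42.7% to 53.9% (DESeq2 size factors) and 61.0% (library totals) in the overexpressor's difference in differentiation, from 40.4% to 52.0% in the knockout's (DESeq2 size factors), and under library totals from 45.8% to 57.8% in overexpressor against control myotubes, 54.0% to 37.9% on control differentiation and 45.5% to 34.0% on knockout differentiation.

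The replicate letters did not pair the libraries: deviations of same-letter libraries had a mean correlation of -0.071 over 45 pairs, 16 of them over 0.1, against 0.043 over 90 other pairs, and 2 of 18 libraries correlated best with their own letter. With the letter as a replicate block, the Six4 call in knockout against control myotubes (-0.29, adjusted p = 0.0677) and the Ash2l call (0.0553) were lost. Under DESeq2 size factors both genes named for Eya3 and the second for Six4, Six5, Eya1 and Eya2 changed. Depth limits Pax3, Eya2 and Six2, and each mutant line is 1 clone.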

Other observations

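The gene next to Six5 on chromosome 7, Dmpk (chr7:19083849-19093821, 772 bases from Six5), which encodes the kinase of myotonic dystrophy, moved opposite to Six5. It was chosen after its values were seen. Dmpk was higher than control in overexpressor myoblasts (log2 fold change 1.06), knockout myoblasts (1.16), overexpressor myotubes (1.35) and knockout myotubes (1.04), the 4 comparisons in which Six5 was lower, with adjusted p between 1.31e-11 and 7.17e-10 in edgeR's quasi-likelihood test. On differentiation Dmpk rose by 0.89 (control), 1.18 (overexpressor) and 0.77 (knockout), while Six5 fell in each line.

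The nearest tested neighbour of Pax7 on the side of lower coordinates, Tas1r2 (66781 bases away, also chosen after its values were seen), encodes a taste receptor subunit. Like Pax7, it was lower than control in knockout myoblasts (-1.13, adjusted p = 1.22e-05), higher in knockout myotubes (1.38, adjusted p = 2.58e-06) and lower in control myotubes than in control myoblasts (-2.17, adjusted p = 4.91e-09). Unlike Pax7, it was higher than control in overexpressor myotubes (1.22, adjusted p = 1.17e-05). It also did not pass where Pax7 did in overexpressor against control myoblasts (-0.011, adjusted p = 0.975), on knockout differentiation (0.34, 0.0838) and in overexpressor against knockout myotubes (-0.16, 0.428).

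The lists of partners, progenitor genes and reported Six-protein targets are given on differentiation beside the shares of all genes. Over all genes tested, 33.9% rose and 28.8% fell in control cells, 29.8% and 33.0% in the overexpressor and 29.8% and 35.6% in the knockout. From myoblasts to myotubes of 23 progenitor genes tested, 5 rose and 14 fell in control cells, 4 and 14 in overexpressor cells and 9 and 10 in knockout cells. Of 14 reported Six-protein targets, 12 rose and 1 fell in control cells, 11 and 2 in overexpressor cells and 12 and 1 in knockout cells. Of 12 partners, 3 rose and 5 fell in control cells, 1 and 6 in overexpressor cells and 4 and 6 in knockout cells.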
